A study of Mus musculus with 3 samples.

Results

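The antiviral genes that cells switch on in response to interferon were followed across 3 single-colour arrays. By label, the cells were mouse cavernous endothelial cells, the lining cells of the blood spaces of the penis. The set was a named list of 39 genes, matched to the array by RefSeq accession with older symbols accepted. A probe was found for 37 of them, among 19751 genes named on the array, and all 37 were well above background on all 3 arrays. Mx1 and Mx2, dynamin-like antiviral GTPases, were not matched to a probe through the gene table and were not analysed here.

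The cells were primary cultures from C57BL/6 mice, grown in serum with vascular endothelial growth factor A. One group was kept in normal glucose (5 mmol), another in high glucose (30 mmol), and the last in high glucose (30 mmol) with an siRNA against Ninj1 (200 pmol, delivered with a lipid reagent), each for 48 h. The product of Ninj1 is an adhesion protein of the cell surface. The labels do not say whether the other 2 groups were given a control siRNA or the transfection reagent. RNA of 3 numbered samples was pooled for each group and read on 1 array, so differences stand without replicates and without p-values. The words higher and lower describe 3 hybridisations.

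The label of the siRNA array was not borne out by its target. Ninj1 signal was 20413 (normal glucose), 16291 (high glucose) and 25539 (siRNA), by label. After scaling it was 0.42 higher on the log2 scale with the siRNA than in high glucose alone, by label. The group words in the deposited file names also exchange the arrays labelled high glucose and siRNA. If those arrays are exchanged, each direction between them turns round, and the siRNA and high-glucose arrays trade places in every comparison with normal glucose. Groups are therefore named by label throughout.

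Endothelial markers were mostly dim. Of 16, 12 were well above background on at least 1 array, while Tie1, Emcn, Erg and Sox18 were on none. The median signal of those 12 was 62.6 under normal glucose, 71.4 under high glucose and 54.5 under siRNA, by label. Kdr (7440 under normal glucose) and Egfl7 (3355) were the brightest. All 12 fibroblast markers, including the collagen genes Col1a1 and Col3a1, were well above background, with median signals of 37695, 38069 and 18636. The labelled cell type was therefore not borne out by these markers. Between 67.0% and 70.6% of probes were well above background on an array, and none was saturated. Differences below are on the log2 scale after each array's 75th percentile was subtracted, and repeat spots of 1 probe give a standard deviation of 0.08 for a difference of single spots. That figure holds spot noise only, with no culture or hybridisation error.

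Type I interferons are secreted proteins that warn cells of viral infection. They bind a receptor made of Ifnar1 and Ifnar2, whose kinases Jak1 and Tyk2 phosphorylate Stat2. A complex that holds Stat2 and Irf9 then binds a DNA element, the interferon-stimulated response element, in front of the antiviral genes, whereas interferon gamma acts through Ifngr1 and Ifngr2 and a second element, the gamma-activated site. The products sense viral nucleic acid, block translation of viral RNA or hold new virus particles at the cell surface, and endothelial cells are a known site of this response.

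By label, the module was lower as a group with the siRNA than in high glucose alone. Of the 37 genes, 19 (51.4%) were at least 2-fold lower, against 8.21% of the 15624 named genes compared. None was at least 2-fold higher, against 6.52% of all genes. The median member differed by -1.02, or 2.03-fold, where the median of all genes was 0.01. In all, 36 members (97.3%) were below 0, as were 47.5% of all genes, and Oasl1 was the sole member above it. Before any scaling, 35 members had a lower signal under the siRNA label and 2, Oasl1 and Rsad2, had a higher one. The members were chosen with earlier results of these arrays known, so the contrast with all genes gives no independent evidence of a direction.

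Against normal glucose the siRNA-labelled array gave much the same picture. At least 2-fold lower were 18 members (48.6%), where the background was 7.93%, and no member was at least 2-fold higher, where the background was 6.35%. The median was -0.97, with Oasl1 and Rsad2 above 0. At 3-fold 3 members were lower, where the background was 3.26%. Both comparisons use the siRNA-labelled array, so they are not independent of each other.

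High glucose against normal glucose left the module within 2-fold throughout. No member was at least 2-fold lower, with a background of 0.69%, and none was at least 2-fold higher, with a background of 0.816%. Their median was 0.05, against -0.01 for all genes. Members above 0 numbered 29 (78.4%), compared with 44.5% of all genes, as counted over the brightest probes. Past the spot noise of 0.08 were 12 members upwards (32.4%, against 19% of all genes) and 2 downwards, Ifi44 and Ifngr1 (5.41%, against 21.6%). The highest was Cmpk2 at 0.42, and its second probe gave 0.60. Rsad2, which lies next to Cmpk2 in the genome, followed at 0.27, and the lowest was Ifi44 at -0.09.

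**Figure D1:**
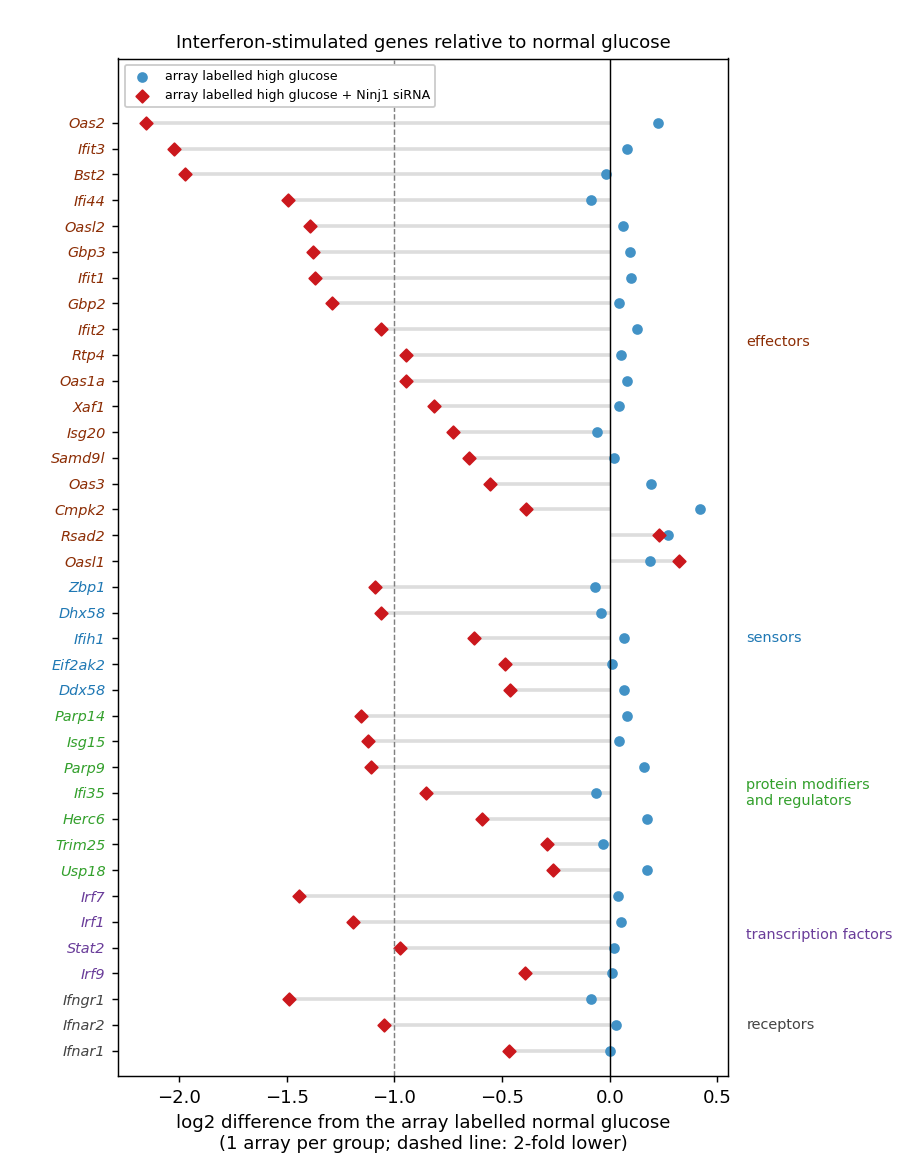
The horizontal axis gives the log2 difference from the array labelled normal glucose for 37 interferon-stimulated genes, grouped by role, with 1 array per group and no error bar. Circles (high glucose) stay between -0.09 and 0.42, whereas 18 of the diamonds (high glucose with Ninj1 siRNA, by label) lie beyond the dashed 2-fold line and those of Oasl1 and Rsad2 lie above 0.

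Effectors here are the members grouped as carrying out the antiviral response. Of these, 10 of 18 were at least 2-fold lower under the siRNA label than under high glucose, against 8.21% of all genes. Their median was -1.11. Oas2 had the largest difference of the module. It encodes an oligoadenylate synthetase, an antiviral enzyme activated by double-stranded RNA. Its signal was 4959 under normal glucose, 5630 under high glucose and 1268 under the siRNA label, 5.19-fold lower (-2.38), and 203 of all genes (1.30%) were as low or lower. Oas1a, of the same enzyme family, was 7580, 7795 and 4483 in that order, 2.04-fold lower. Oas3 stayed within 2-fold at 83.0, 91.9 and 64.3 (-0.74). In Oas2, Oas1a and Oas3 alike the siRNA label had the smallest signal.

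The OAS-like pair parted. Oasl2, which keeps synthetase activity, read 21981, 22317 and 9533 under normal glucose, high glucose and siRNA, a 2.74-fold lower level (-1.45). Oasl1, which lacks synthetase activity and is known in mouse as a translational brake on Irf7, read 4646, 5145 and 6601, a difference of 0.13. Each gene was read by a single probe.

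The IFIT proteins bind foreign RNA ends and keep such RNA from being translated. Ifit3 had the second largest difference: its signal of 60099 under normal glucose and 61733 under high glucose stood at 16797 under the siRNA label, 4.30-fold lower (-2.10). Ifit1 went from 16903 and 17592 to 7451, which is 2.76-fold lower. For Ifit2 the signals were 1801, 1913 and 982, or 2.28-fold lower. All 3 were lowest under the siRNA label, and in each the arrays of normal and high glucose differed by at most 0.13. The close paralog Ifit3b, from a list of other interferon-stimulated genes, was 5.32-fold lower, and near-identical copies such as these may share signal.

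Bst2, or tetherin, ties budding virus to the cell membrane. Signals of 76319 and 73346 under normal and high glucose compared with 22119 under the siRNA label, 3.88-fold lower (-1.96). The guanylate-binding proteins Gbp2 and Gbp3, interferon-induced GTPases that coat the vacuoles of intracellular pathogens, were lower as well. Gbp2 read 23689, 23721 and 11012 (2.52-fold lower), and Gbp3 read 26010, 26935 and 11368 (2.77-fold lower). Ifi44, a marker of the response, read 21088, 19271 and 8514, which is 2.65-fold lower.

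The other effectors did not pass 2-fold. Rtp4, an inhibitor of flaviviruses, stood just short of it at 1.99-fold lower, and Xaf1, a promoter of cell death, at -0.86. Isg20, an RNA exonuclease, and Samd9l, a restriction factor of poxviruses, both stood at -0.67. Rsad2 and Cmpk2 act in sequence, since Cmpk2 supplies the nucleotide that Rsad2 (viperin) turns into a chain terminator of viral RNA synthesis. Cmpk2 signals were 1419, 1845 and 1234 (-0.81), with a second probe at -0.98. Rsad2 signals were 1645, 1929 and 2189, a difference of -0.04 that is smaller than the spot noise.

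The cytoplasmic sensors were all lower under the siRNA label than under high glucose, with a median of -0.70. At least 2-fold lower were 2 of 5, against 8.21% of all genes. Dhx58 (LGP2), a helper of the RNA helicase sensors, read 3489 under normal glucose, 3300 under high glucose and 1902 under the siRNA label, 2.03-fold lower. Zbp1, which recognises left-handed nucleic acid and can start necroptosis, read 12133, 11249 and 6494, also 2.03-fold lower, but its second probe gave -0.27. These 2 sit at the threshold.

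The helicase sensors themselves differed less. Ifih1 (MDA5), which detects long double-stranded RNA, read 6332, 6442 and 4647 (-0.70). Ddx58 (RIG-I), which detects RNA ends, read 14311, 14540 and 11791 (-0.53), although its dimmer probe gave -1.03. Eif2ak2 (PKR), the kinase that halts translation on binding double-stranded RNA, read 3310, 3237 and 2685 (-0.50). High glucose minus normal glucose lay between -0.07 and 0.07 on the brightest probe of each sensor, and was 0.20 on the second probe of Ifih1, 0.16 on that of Zbp1 and 0.10 on that of Ddx58.

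Of the protein modifiers and regulators, 3 of 7 were at least 2-fold lower, against 8.21% of all genes, and the median was -0.79. Isg15, a ubiquitin-like protein attached to other proteins, read 69250 under normal glucose, 69229 under high glucose and 36158 under the siRNA label, 2.24-fold lower, and its second probe gave -1.30. The ADP-ribosylation proteins Parp9 and Parp14 were lower to a like extent. Parp9 read 8936, 9699 and 4707 (2.41-fold lower) and Parp14 read 14829, 15208 and 7583 (2.35-fold lower).

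Herc6 and Usp18, which attach and remove Isg15, differed less than Isg15. Herc6, the main ligase for it in mouse, was at -0.76 with a second probe at -0.15, and Usp18, the protease that strips it off and also damps the receptor, was at -0.43. Trim25, the ubiquitin ligase of Ddx58, was at -0.26, and Ifi35, a partner of Nmi, at -0.79.

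Of the 4 transcription factors, 2 were at least 2-fold lower, against 8.21% of all genes, and the median was -1.12. Irf7, which amplifies the production of interferon, read 2572 under normal glucose, 2568 under high glucose and 1077 under the siRNA label, 2.79-fold lower (-1.48). Irf1, an early target of interferon gamma, read 19347, 19491 and 9620, 2.37-fold lower (-1.25), and its second probe was not well above background under normal or high glucose. Between normal and high glucose Irf7 differed by 0.04 and Irf1 by 0.05.

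Stat2 and Irf9, which form the complex that reads the response element, were less far apart. Stat2 read 22961, 22644 and 13316, or 1.99-fold lower (-0.99), and passed 2-fold under quantile normalization and cyclic loess, as did Rtp4. Irf9 read 13494, 13217 and 11687 (-0.40).

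Receptor chains of the module were lower too, 2 of 3 by at least 2-fold (8.21% of all genes), with a median of -1.08. Ifngr1, the ligand-binding chain for interferon gamma, read 21123 under normal glucose, 19318 under high glucose and 8564 under the siRNA label, 2.64-fold lower (-1.40). Ifnar2, which binds type I interferon with high affinity, read 15030, 14898 and 8259, 2.11-fold lower. Ifnar1, its partner chain, read 4227, 4114 and 3475 (-0.47), and its other probes gave -0.16 and -0.12. The chains of each receptor thus had unequal differences, since Ifngr2, the partner of Ifngr1, was at 0.18.

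The counts at 2-fold, for the module and for its small roles, depend on genes near that line. For 6 members the difference was within 0.08 of it, 4 of them beyond. With 1.5-fold as the threshold 29 members were lower and 0 higher, where 15.7% of all genes were lower and 14.3% higher. With 3-fold 3 members were lower, namely Oas2, Ifit3 and Bst2, where the background was 3.35%. Among 11 members read by several measured probes, all 11 had the same sign on every probe and 8 kept the same side of 2-fold. Xaf1, Ddx58 and Zbp1 were the exceptions, with probes at -0.86 and -1.48 for Xaf1.

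**Figure D2:**
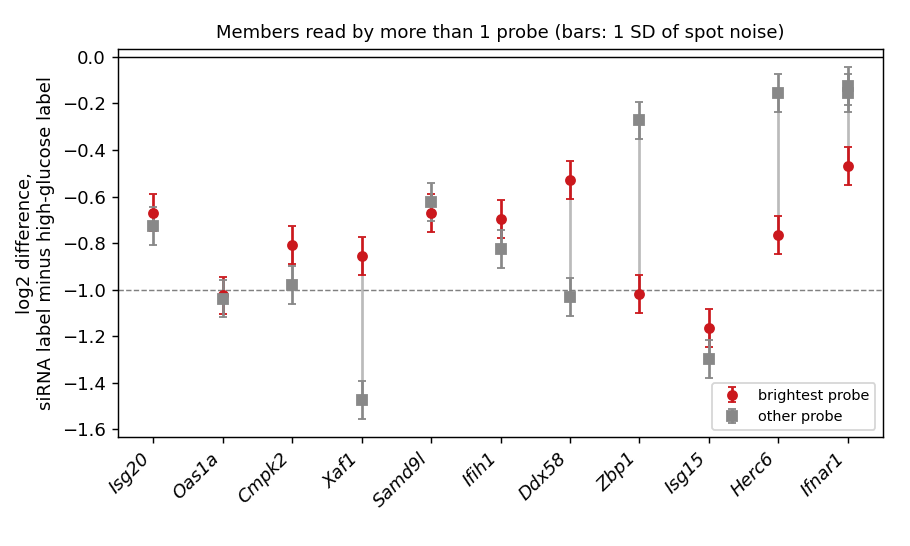
Each point is 1 probe of the 11 members read by several measured probes, with the log2 difference of the siRNA label minus the high-glucose label on the vertical axis and bars of 1 standard deviation of spot noise (0.08). All probes lie below 0, and those of Xaf1, Ddx58 and Zbp1 fall on both sides of the dashed 2-fold line.

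The promoters of 5 members are shown to place the DNA elements of this pathway beside the values: Ifit3, Bst2 and Isg15 as at least 2-fold lower members, Irf1 for the gamma-activated site, and Rsad2 as a gene with an element and little difference. Each sequence holds the 160 bases before the RefSeq start in GRCm38.p6, read 5′ to 3′ along the gene's strand. Capitals mark letters that fit TTTCNNTTTC or its reverse GAAANNGAAA (the core of the interferon-stimulated response element) or TTCNNNGAA (the gamma-activated site), with N for any base. The windows lie at chr19:34583369-34583528 (plus strand), chr8:71537473-71537632 (minus), chr4:156200819-156200978 (minus), chr11:53769854-53770013 (plus) and chr12:26456453-26456612 (minus).
Ifit3: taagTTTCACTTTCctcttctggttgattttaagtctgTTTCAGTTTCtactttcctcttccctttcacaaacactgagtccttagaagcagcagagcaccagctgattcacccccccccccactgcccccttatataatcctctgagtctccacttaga
Bst2: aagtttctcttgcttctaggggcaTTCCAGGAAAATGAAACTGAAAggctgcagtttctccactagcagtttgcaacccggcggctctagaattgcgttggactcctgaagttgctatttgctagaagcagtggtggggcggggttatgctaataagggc
Isg15: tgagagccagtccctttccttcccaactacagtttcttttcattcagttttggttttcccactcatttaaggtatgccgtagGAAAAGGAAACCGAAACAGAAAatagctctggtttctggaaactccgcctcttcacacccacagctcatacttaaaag
Irf1: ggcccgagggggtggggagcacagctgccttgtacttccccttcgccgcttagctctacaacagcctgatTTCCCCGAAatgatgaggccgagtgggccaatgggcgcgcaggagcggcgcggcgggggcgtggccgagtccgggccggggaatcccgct
Rsad2: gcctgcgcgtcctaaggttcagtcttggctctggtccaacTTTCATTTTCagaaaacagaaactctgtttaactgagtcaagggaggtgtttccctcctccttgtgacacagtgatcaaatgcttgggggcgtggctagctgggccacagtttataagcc

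Ifit3 carries 2 separate response element cores, Rsad2 carries 1, and Isg15 carries 3 overlapping ones in a single capital run. In Bst2 the run joins a gamma-activated site and 2 overlapping cores, and Irf1 has a gamma-activated site only. These are letter matches, which do not show that a factor is bound.

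A window from 250 bases before to 50 after the start was given for 30 of the 37 members, and both strands were searched. The response element core was present for 13 of the 30 (43.3%), against 3.99% of all genes with a window. It was in 13 of the members' 36 windows, while 3.44% of all 32851 windows held it. The gamma-activated site was present for 9 members (30%), against 9.55% of all genes with a window. It was in 9 of the members' windows and in 8.3% of all windows. Some 3 members had both and 11 neither. Members with the response element core had a median difference of -1.03 between the siRNA and high-glucose labels, with 7 of 13 at least 2-fold lower. The 17 without it had a median of -0.81, with 7 at least 2-fold lower. Of all genes compared, 8.21% were at least 2-fold lower. For the gamma-activated site the medians were -1.03 in 9 members with it and -0.86 in 21 without.

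**Figure D3:**
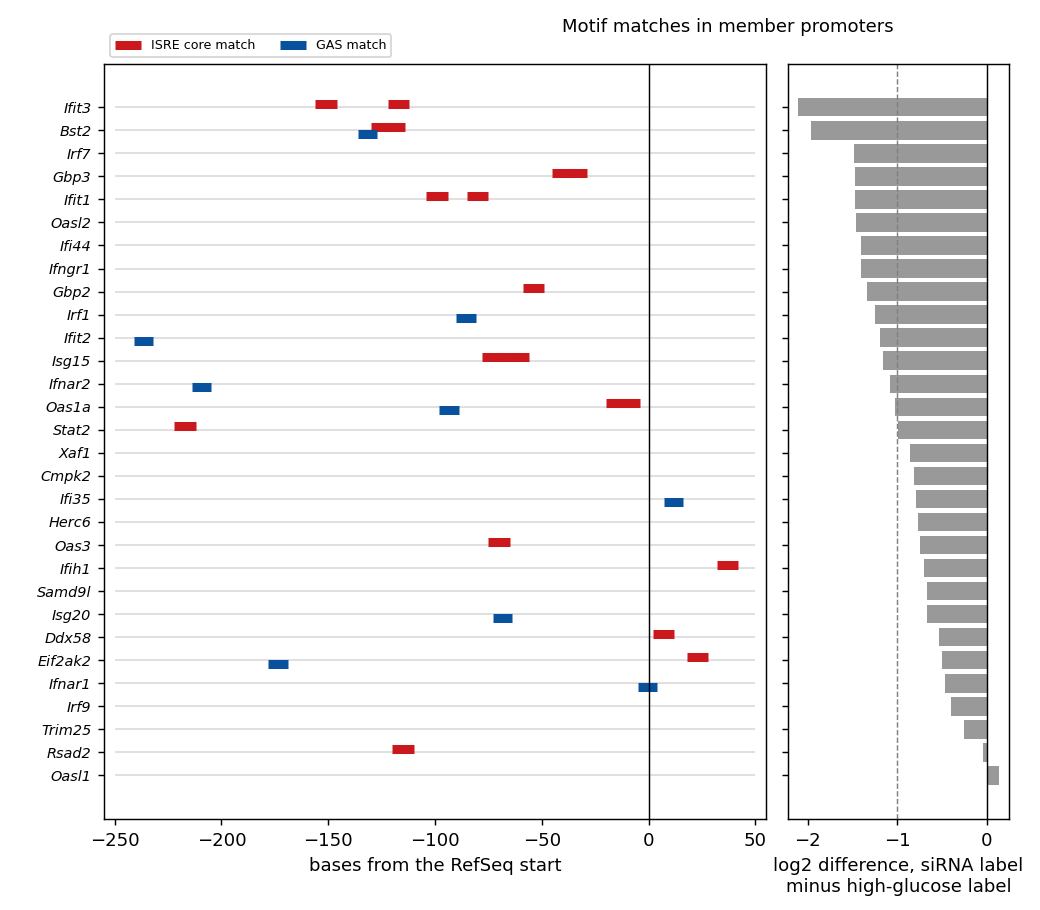
The left panel marks matches to the response element core (red) and the gamma-activated site (blue) by their distance in bases from the RefSeq start in 30 members, and the right panel gives each gene's log2 difference, siRNA label minus high-glucose label. Genes are ordered by that difference from Ifit3 (-2.10) to Oasl1 (0.13), and matches are found from the top of the order to Rsad2 (-0.04), near its end.

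Genes around the module were read from lists that share no gene with it. For the siRNA label against high glucose, the receptor kinase Tyk2 was at -0.88, Stat3 at -0.24, Jak2 at -0.23 and Jak1 at -0.06, and Stat4 was not well above background. Of the other receptor chains, Il10rb was at -0.72 and Ifnlr1 at -0.59. Among other interferon regulatory factors, Irf5 was at 0.80, Irf2 at -0.32, Irf3, the factor activated by the sensors, at -0.30 and Irf8 at -0.07. Irf5 was dim, at 110, 105 and 215 under normal glucose, high glucose and siRNA, as was Irf8 (135, 118 and 131).

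The interferons themselves showed no 2-fold difference, but their probes were dim. Of 15 ligand genes with a probe, 11 could be compared, with a median of 0.27. At least 2-fold lower were 0 and at least 2-fold higher 0, against 8.21% and 6.52% of all genes. Signals of these genes ran from 18.3 to 203, where the lowest signal well above background was 11.7 to 16.9 by array. Probes this dim may miss a difference in ligand level. Ifnb1, the first interferon made on infection, read 94.0, 99.0 and 80.1 under normal glucose, high glucose and siRNA. Among the Ifna genes, near-identical copies whose probes may not tell them apart, Ifna11 was at -0.68, Ifna2 at 0.51 and Ifna1 at 0.48. Ifng stayed below the background mark on all 3 arrays.

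The negative regulators had 0 of 10 past 2-fold and a median of -0.11, where 8.21% of all genes were lower and 6.52% higher. With 10 genes, 0 cannot be told apart from those shares. Socs1, an inhibitor of the Janus kinases, was at -0.70 and Pias1, an inhibitor of STAT signalling, at -0.73. By contrast Ptpn6, a phosphatase, was at 0.78 and Irf2bp2, a partner of Irf2, at 0.66. Ptpn6 was dim, at 98.1, 89.9 and 181 under normal glucose, high glucose and siRNA. Sensing adaptors and kinases had a median of -0.02 over 16 genes. On the brightest probes 1 was past 2-fold each way, where 8.21% of all genes were lower and 6.52% higher. The lower was Tlr3, the endosomal receptor for double-stranded RNA, at 253, 293 and 144 (-1.26). The higher was Mb21d1, now called Cgas, the sensor of cytosolic DNA, at 1451, 1377 and 4031 (1.32), and its other probes gave 0.98 to 1.26. Tbk1, the kinase of Irf3, was at -0.59 and Rnf125, a ubiquitin ligase of Ddx58, at 0.44. Tlr7 and Nlrx1 were within 2-fold on the brightest probe (0.02 and -0.12), but their second probes gave -1.365 and -1.57.

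Among 12 genes of nucleic acid turnover and restriction, with a median of -0.38, Samhd1, which destroys the nucleotides viruses need, was 2.23-fold lower with a second probe at -0.43. Rnaseh2a, a subunit of the nuclease that removes RNA from DNA, was 2.14-fold higher, with its other probes at 0.54 to 1.07. Mov10, an RNA helicase, was at -0.94 and Trex1, which clears cytosolic DNA, at -0.78.

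A further list of 59 interferon-stimulated genes outside the module had 50 that could be compared. Of these, 23 were at least 2-fold lower under the siRNA label and 0 higher, against 8.21% and 6.52% of all genes, with a median of -0.95. Its largest differences were Gbp4 at 265, 311 and 47.1 (7.73-fold lower), Tgtp1, an immunity-related GTPase, at 273, 296 and 47.0 (7.38-fold lower) and Gbp5 at 1328, 1478 and 274 (6.32-fold lower). This list was drawn up with earlier results of these arrays known and gives no independent evidence of a direction.

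**Figure D4:**
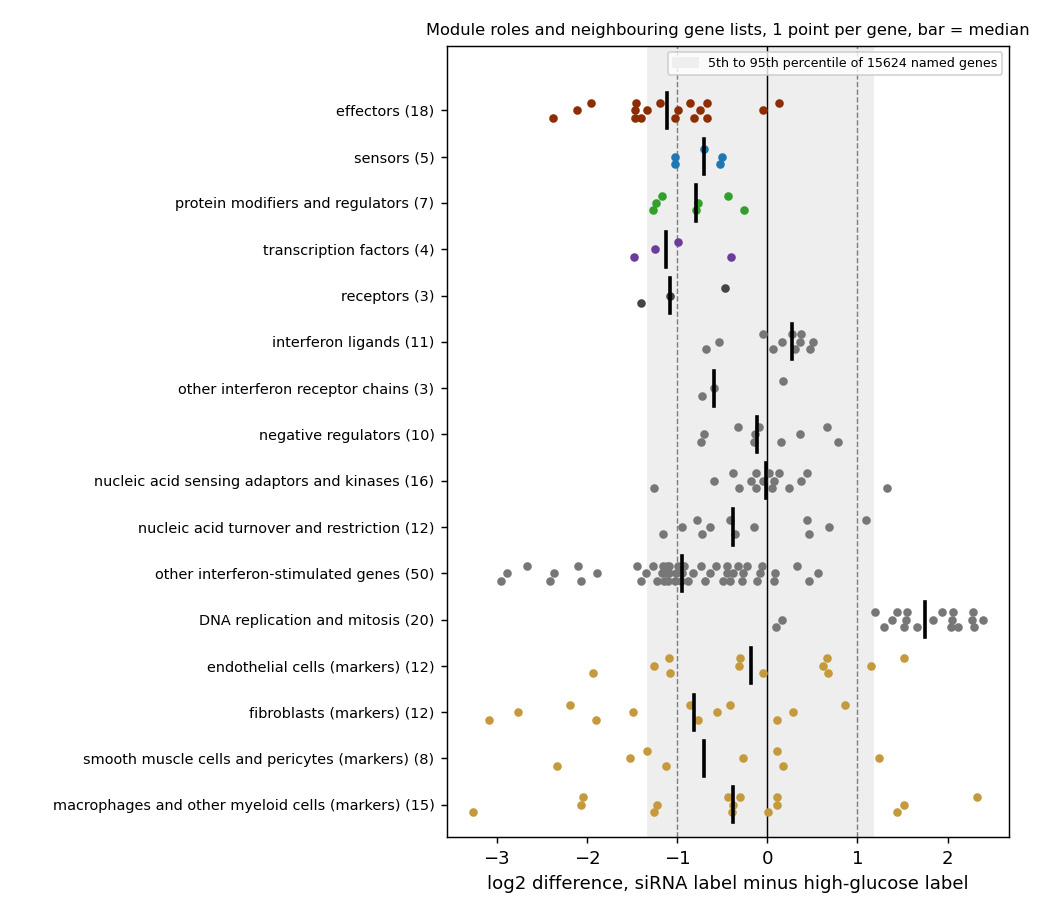
Each point is 1 gene and each black bar a list median, with the log2 difference of the siRNA label minus the high-glucose label on the horizontal axis and the number of genes compared in brackets, bounds included. The grey band spans the 5th to 95th percentile of 15624 named genes (-1.32 to 1.17). The 5 roles of the module have medians between -1.12 and -0.70, and the replication list has the highest median, 1.75.

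Other gene groups differed between the same arrays, where 8.21% of all genes were at least 2-fold lower under the siRNA label and 6.52% higher. In a list of 20 genes of DNA replication and mitosis, 18 were at least 2-fold higher under the siRNA label than under high glucose, with a median of 1.75. Among fibroblast markers 5 of 12 were at least 2-fold lower and 0 higher, with a median of -0.82 and a summed signal of 990186, 973003 and 781569 under normal glucose, high glucose and siRNA. Among macrophage and myeloid markers 5 of 15 were at least 2-fold lower (Adgre1, Lyz2, Fcer1g, Ptprc and Itgax) and 3 higher (Cd14, S100a8 and S100a9). Their summed signal was 193804, 190902 and 204461, most of it from Siglech (144378, 145561 and 130955). Without Siglech the sum over 14 markers was 49426, 45341 and 73506, and the markers with a larger signal under the siRNA label included Cd14 and S100a8. Csf1r was at 0.11, and Cd163 was not well above background. Endothelial markers had 4 of 12 at least 2-fold lower (Tek, Vwf, Cldn5 and Robo4) and 2 higher (Cdh5 and Esam). The 4 lower ones were dim, at 66.2 or less on every array, and those of Tek and Cldn5 are bounds. The summed signal of the endothelial markers was 11607, 11355 and 15854, most of it from Kdr and Egfl7. Smooth muscle and pericyte markers had 4 of 8 at least 2-fold lower and 1 higher. In such bulk RNA, fewer cells of a type and less RNA per cell cannot be told apart. The part of these differences in the module's lower level was not tested.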

How the data were processed

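For each group, RNA of 3 numbered samples was pooled and labelled with Cy3, per the labels, and the 3 arrays share 1 slide. Agilent Feature Extraction 11.0.1.1 measured the intensity of each spot, per the file headers, which was deposited as a background-subtracted processed signal on a linear scale. The authors' value table also holds intensity on a linear scale: 100% of 39030 single-spot probes were within 0.1% of the processed signal, its column medians were 118, 118 and 129 under normal glucose, high glucose and siRNA, and how repeat spots were combined is unknown.

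Here outlier spots (109, 147 and 107) were left out, log2 signals were averaged per probe, and each array's 75th percentile (1780, 1729 and 2024 in signal) was subtracted. A probe was well above background where the Feature Extraction mark for this held for at least 50% of its spots. RefSeq accessions named 26055 of 39429 probes (66.1%). A gene took the brightest of its probes that passed this mark on 1 array or more. Where 1 array was dim, the difference is a bound: on that array the probe's signal was set to no less than the lowest signal well above background. A gene was counted past 2-fold from this value, bounds included. All member differences are measured. Spot noise came from 300 repeated probes (median SD 0.06).

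Members and lists were chosen with earlier results of these data known. Signals on every array are given for members past 2-fold and for all sensors, transcription factors and receptors; from each other list up to 4 genes with the largest differences and those past 2-fold, or several JAK-STAT genes and regulatory factors. Some results are not reported here. Oas3, Oasl1, Rsad2, Cmpk2, Irf5, Irf8 and Ptpn6 were given on every array after their values were seen. Tlr7 and Nlrx1 were named because their second probes differ from the brightest. Promoters came from RefSeq (GRCm38.p6), and the files' own annotation build was not used. Array number limits the precision. The steps were tested on simulated data. Alternatives were quantile normalization, cyclic loess (limma 3.58.1, R 4.3.3), median scaling, normexp (offset 50, run on median spot signals), the value table, other filters, the mean over probes, other thresholds, and exchanging the siRNA and high-glucose arrays. Python 3.11.15 was used.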

Additional observations from a re-analysis of the deposited data

How the results depend on the processing

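The direction between the siRNA and high-glucose labels rests on the labels. With those arrays exchanged, 0 members were at least 2-fold lower (6.52% of all genes) and 19 higher (8.21% of all genes), with a median of 1.02. The role medians were 1.11 for effectors, 0.70 for sensors, 0.79 for modifiers and regulators, 1.12 for transcription factors and 1.08 for receptors. High glucose against normal glucose then had 18 members at least 2-fold lower (7.93% of all genes) and a median of -0.97. For siRNA against normal glucose there were 0 such members (0.69% of all genes) and a median of 0.052. By label, for siRNA against high glucose a threshold of 1.5-fold gave 29 lower members (15.7% of all genes) and 3-fold gave 3 (3.35%). Against normal glucose 3-fold gave 3 (3.26%). Cyclic loess moved the median against normal glucose to -1.06, that of transcription factors to -1.22 and that of receptors to -1.16, and the mean over probes moved transcription factors to -0.81. Quantile normalization and cyclic loess each gave 21 members at least 2-fold lower, with Rtp4 and Stat2 added, where 7.81% and 7.99% of all genes were lower. Normexp gave 20, with Zbp1 lost and Rtp4 and Stat2 added, while 5.01% of all genes were then at least 2-fold lower. The mean over probes gave 18 (8.03% of all genes were lower), with Zbp1 and Irf1 lost and Xaf1 added. Irf1 was lost because its second probe, not well above background under high glucose, entered the mean as a difference of 0. The transcription factor median of -0.81 has the same source, so neither shows a disagreement between measured probes. Median scaling, the value table, no filter on dim probes and a filter on all 3 arrays each gave the same 19 genes. Across these, 7.14% to 8.63% of all genes were at least 2-fold lower. In all of these except the exchange, Oasl1 was the sole member above 0.

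No paired analysis was possible because each group has 1 array. For the same reason no replicate could be left out, and culture and hybridisation error are unknown. The shared slide gives no batch term. Low signals such as those of Oas3 and Ifnb1 are the most open to background: under normexp Oas3 was at -0.51 against -0.74 as reported.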
